A study of Mus musculus with 12 samples.

Results

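Th9 cells are CD4+ T helper cells that naive T cells become when they are stimulated in the presence of IL-4 and TGF-β, and that secrete IL-9. Fatostatin is a small molecule that inhibits SREBPs, the transcription factors that switch on the genes of sterol and fatty acid synthesis. The comparison described here is that of fatostatin alone with its vehicle, and its members are the 6 libraries labelled DMSO or DMSO fato among the 12 of the series, with 3 in each group. All 6 came from T cells of C57BL/6J splenocytes, isolated as naive CD4+ cells and polarized up to day 4, per the study's text, with IL-4 at 10 ng/mL and TGF-β at 1 ng/mL beside antibodies to IL-12 and IFN-γ. The vehicle group received DMSO and the fatostatin group DMSO with 5 μM fatostatin. The other 6 libraries, also 3 and 3, came from cells given 10 μM EpA, a fungal cyclic peptide, without or with 5 μM fatostatin. They enter the same fit, so that they shape the spread estimate and the minimum level behind the p-values of this comparison. Their own contrast, which shares no library with this one, shows how the called genes behaved with EpA. A test of the difference and values of EpA against DMSO use them too. The study's methods give the age of its mice as 6 to 8 weeks. The number of mice behind these libraries is not given in the sources used here. Nothing in the labels says that the 3 replicates of a group were separate cultures or animals. A figure legend of the study speaks of 12 independent Th9 samples, without saying whether these were separate cultures or animals. The p-values therefore measure the spread between libraries, which may be technical.

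Messenger RNA was measured by RNA-seq as FPKM, the fragments on a gene per kilobase of its exons scaled to a fixed library size. The 6 libraries held 36607303 to 44375791 reads by the totals recovered from the FPKM values, and 1 read on a gene of 1 kb was worth 0.0225 to 0.0273 FPKM. T cell markers (*Cd3d*, *Cd3e*, *Cd3g*, *Cd4* and *Cd28*) summed to 422 to 430.2 FPKM in the DMSO libraries and 423 to 436 in the fatostatin libraries. The sum hides single changes, as 3 of these 5 passed limma's adjusted p below 0.05, though 0 passed the 1.5-fold threshold as well. Markers of B cells summed to 5.97 to 7.88 and 7.51 to 8.62 FPKM, and CD8 T cell markers to 8.71 to 9.79 and 8.55 to 10.2 FPKM. Those of myeloid, dendritic, NK, mast and erythroid cells summed to at most 1.22 FPKM per library and type. Of the 5 myeloid markers, 1 was tested, *Lyz2*, a lysozyme, which had 0 to 4 reads in the DMSO libraries and 8 to 13 in the fatostatin libraries and passed limma's test and a 1.5-fold threshold (log2 fold change 1.15 with SE 0.26, adjusted p = 0.0113). The summed level of the list was 0.0533 to 0.153 FPKM with DMSO and 0.216 to 0.340 with fatostatin. The part of these few reads in the results below was not tested. In RNA from whole cultures, fewer cells that express a gene and less RNA of it per cell cannot be told apart.

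SREBPs are made as precursors in the membrane of the endoplasmic reticulum. When sterols are low, SCAP escorts them to the Golgi, where the site-1 and site-2 proteases (*Mbtps1* and *Mbtps2*) release the part that enters the nucleus, and INSIG proteins hold the complex back when sterols are ample. SREBP2 mainly drives sterol synthesis and uptake, and SREBP1 mainly drives fatty acid synthesis. In T cells, these pathways supply membrane for growth after activation.

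A test was made for 13733 genes, those that averaged 0.1 FPKM or more across all 12 libraries. At a limma adjusted p below 0.05, 1056 were higher (7.69%) and 866 lower (6.31%) with fatostatin, and the unadjusted p was below 0.05 for 3679. Most of these differences were small. With a fold change of at least 1.5 added as a second threshold, 186 genes were higher (1.35%) and 69 lower (0.502%), and these are the genes said to be called below. The values of the 3 and 3 libraries did not overlap for 252 of the 255 called genes. Over all genes tested, the 3 fatostatin libraries lay above the 3 DMSO libraries in 16.5% and below them in 14.8%. The median log2 fold change of all genes tested was 0.00535. Of the called genes, 115 (45.1%) had a mean below 1 FPKM, which leaves 97 higher and 43 lower genes with a mean of 1 FPKM or more. A pseudocount of 1 FPKM in place of 0.1 gave 55 higher and 34 lower genes. With only the 6 libraries of this comparison in the fit, 824 genes were higher and 681 lower at the limma adjusted p alone. With the fold threshold added, that fit gave 166 and 72.

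More genes of SREBP-driven lipid synthesis fell than rose, by small amounts. None of the 66 tested members of the 4 lists on SREBP processing, cholesterol synthesis, sterol uptake and fatty acid synthesis passed the 1.5-fold threshold, which 1.35% of all genes passed upward and 0.502% downward. At the adjusted p alone, 20 were lower (30.3%, against 6.31% of all genes) and 6 higher (9.09%, against 7.69%). The largest fall was that of *Scd1*, which encodes the desaturase that makes oleate and palmitoleate, and was measured at 243, 246 and 241 FPKM with DMSO and 176, 170.1 and 169 FPKM with fatostatin. All 3 fatostatin libraries lay below the DMSO libraries (log2 fold change -0.50 with SE 0.018, adjusted p = 1.9e-08).

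**Figure D1:**
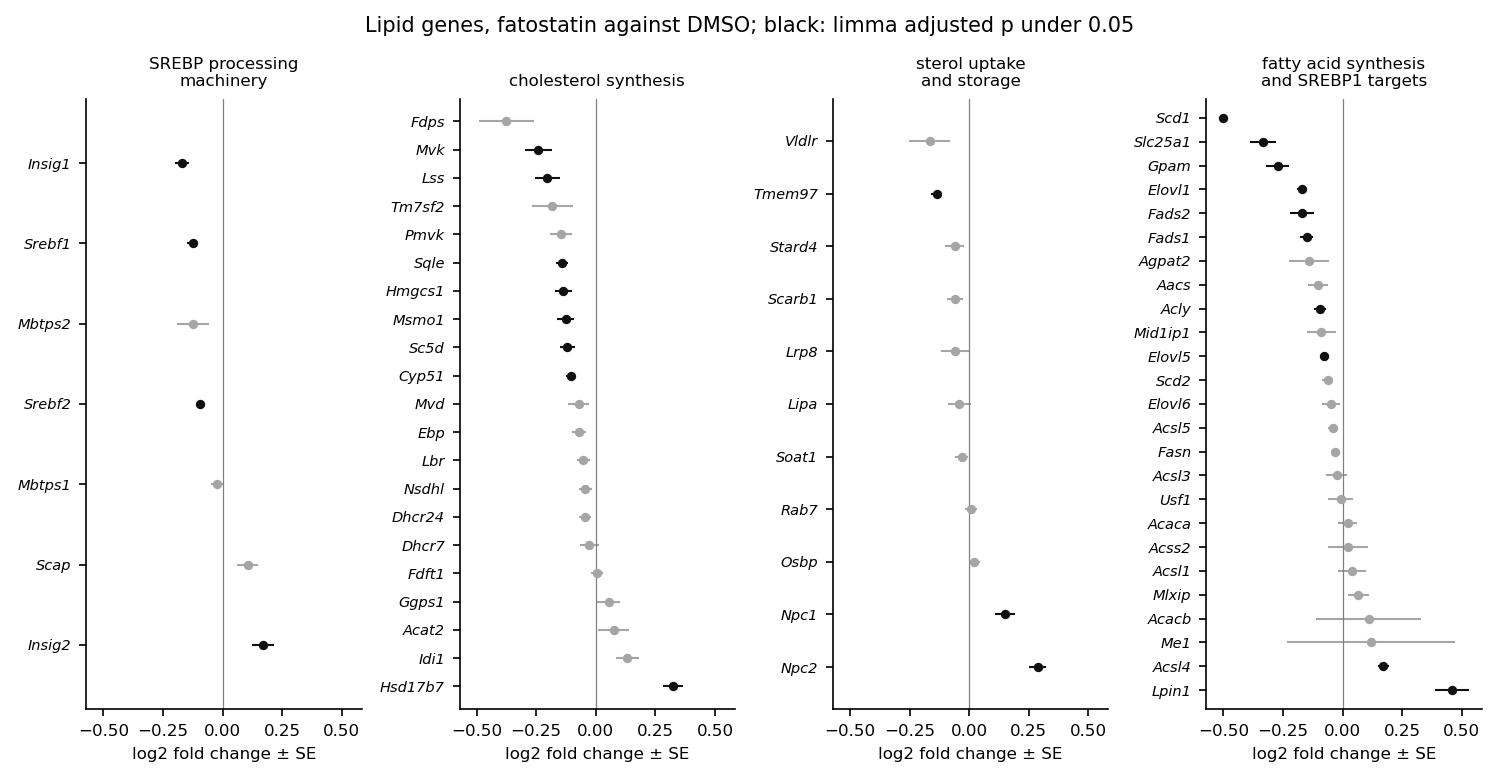
Log2 fold change of fatostatin against DMSO with its standard error for 64 tested genes of 4 lipid lists, 1 gene per row and 1 list per panel. Genes with a limma adjusted p below 0.05 are black and the others gray. *Scd1* at -0.50 and *Lpin1* at 0.46 are the ends of the range, and no gene reaches 1.5-fold.

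Among the 7 members of the processing machinery, 3 fell (42.9%, against 6.31% of all genes) and 1 rose (14.3%, against 7.69%). Values after ± are the SD of 3 libraries. *Insig1*, the sterol-induced anchor of SCAP, fell from 39.1 ± 0.929 to 34.8 ± 0.611 FPKM (log2 fold change -0.17 with SE 0.028, adjusted p = 0.00191). *Srebf1* fell from 37.3 ± 0.835 to 34.2 ± 0.645 FPKM (log2 fold change -0.12 with SE 0.023, adjusted p = 0.00391) and *Srebf2* from 39.5 ± 0.644 to 37 ± 0.117 FPKM (log2 fold change -0.093 with SE 0.018, adjusted p = 0.00593), whereas *Insig2* rose from 8.23 ± 0.328 to 9.27 ± 0.245 FPKM (log2 fold change 0.17 with SE 0.046, adjusted p = 0.0303). *Scap*, *Mbtps1* and *Mbtps2* did not pass the test, with log2 fold changes of 0.10, -0.023 and -0.12. *Insig2* no longer passed the adjusted p without DMSO replicate 1 or 3 or fatostatin replicate 2 or 3.

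Of the 22 cholesterol synthesis genes, 7 fell (31.8%, against 6.31% of all genes), 1 rose (4.55%, against 7.69%) and 14 did not pass the test, with a median log2 fold change of -0.0709 and a range of -0.38 to 0.32. *Hmgcs1*, which makes HMG-CoA for the mevalonate pathway, was at 25, 26.9 and 26.2 FPKM with DMSO and 24.8, 22.8 and 23.4 FPKM with fatostatin (log2 fold change -0.14 with SE 0.035, adjusted p = 0.0228). *Sqle*, the squalene epoxidase, fell from 21.2 ± 0.266 to 19.2 ± 0.56 FPKM (log2 fold change -0.14 with SE 0.025, adjusted p = 0.00281), and *Cyp51*, the lanosterol demethylase, from 48.9 ± 0.573 to 45.4 ± 0.752 FPKM (log2 fold change -0.10 with SE 0.021, adjusted p = 0.00674). *Mvk*, *Lss*, *Msmo1* and *Sc5d* also fell, by 0.12 to 0.24 on the log2 scale. *Hsd17b7*, a ketosteroid reductase of the late pathway, rose from 6.05 ± 0.159 to 7.59 ± 0.366 FPKM (log2 fold change 0.32 with SE 0.042, adjusted p = 0.000321). *Hmgcs1*, *Mvk*, *Lss*, *Msmo1* and *Sc5d* each no longer passed the adjusted p in at least 1 fit without 1 library. *Mvk* was the largest of them in size (-0.31 to -0.18 over the alternatives). Exons of *Hmgcs1*, *Cyp51*, *Lss*, *Fdps*, *Srebf1*, *Elovl1* and *Npc1* overlap those of other genes, so that their reads may be shared. *Fdps* had the largest estimated fall of the list but did not pass, at 1.01 ± 0.0542 FPKM with DMSO and 0.754 ± 0.0517 with fatostatin (log2 fold change -0.38 with SE 0.12, adjusted p = 0.054).

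Sterol regulatory elements lie close upstream of many SREBP target genes, so promoter sequence was read for these members. RefSeq gives promoters of 250 bases before and 50 after the start for 17 of the 22 tested cholesterol genes. Here and below, a gene is counted if any of its promoter entries holds the motif. The shares of all promoters are per entry, and some genes have several entries, so these are not like measures. The sterol regulatory element TCACNCCAC was found in 1 of the 17, against 1.24% of the 32851 promoters of the table, and the E-box CACGTG, a further sequence that SREBPs can bind, in 3 of 17 against 7.15%. On the 7 machinery genes the counts were 0 and 2, and on 22 of the 25 fatty acid genes 1 and 2. The stretches shown are those of *Hmgcs1*, on the plus strand of GRCm38.p6 at chr13:119690191-119690270, and of *Insig1*, on the plus strand at chr5:28071272-28071351, as examples of members that fell and hold one of these motifs. Other members hold them too, with the E-box in *Hsd17b7*, which rose, and in *Scap* and *Dhcr7*, which did not pass the test, and the sterol regulatory element in *Acsl1*, which did not pass either. Capitals mark the sterol regulatory element of *Hmgcs1*, whose first base is at position -137 from the start, and the E-box of *Insig1*, whose first base is at -101.
Hmgcs1: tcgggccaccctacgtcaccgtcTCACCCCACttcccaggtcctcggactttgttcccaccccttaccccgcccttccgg
Insig1: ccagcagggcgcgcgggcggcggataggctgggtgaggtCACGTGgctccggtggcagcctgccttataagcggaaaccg
A match is only a run of letters in the window, and binding was not measured here.

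In sterol uptake and storage, 2 of 12 tested members fell and 2 rose (16.7% each, against 6.31% and 7.69% of all genes). *Tmem97* was one of those that fell, though not the one that fell most (60.4 ± 1.55 to 54.9 ± 0.934 FPKM, log2 fold change -0.14 with SE 0.024, adjusted p = 0.0027), and the rises were those of *Npc2* and *Npc1*. *Npc2*, which hands cholesterol over inside the lysosome, rose from 65.1 ± 1.93 to 79.4 ± 1.3 FPKM (log2 fold change 0.29 with SE 0.035, adjusted p = 0.000229). *Npc1*, its partner in the lysosomal membrane, rose from 5.82 ± 0.0659 to 6.47 ± 0.148 FPKM (log2 fold change 0.15 with SE 0.042, adjusted p = 0.0362). It did not pass the adjusted p in any of the 6 fits without 1 library. The 8 members *Vldlr*, *Lrp8*, *Scarb1*, *Stard4*, *Lipa*, *Soat1*, *Rab7* and *Osbp* had log2 fold changes between -0.17 and 0.02.

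Of the 25 tested fatty acid synthesis and SREBP1 target genes, 8 fell (32%, against 6.31% of all genes), 2 rose (8%, against 7.69%) and 15 did not pass, with a median log2 fold change of -0.0472. *Fasn*, the fatty acid synthase, was at 35.4, 35.4 and 35.2 FPKM with DMSO and 34.8, 35.1 and 33.9 FPKM with fatostatin (log2 fold change -0.03 with SE 0.017, adjusted p = 0.311), and *Acaca*, which makes malonyl-CoA, at 7.64 ± 0.183 FPKM with DMSO and 7.77 ± 0.288 with fatostatin (log2 fold change 0.022 with SE 0.04, adjusted p = 0.787). Neither passed the test. After *Scd1*, the largest falls were of *Slc25a1*, the mitochondrial citrate carrier, from 29.9 ± 0.628 to 23.8 ± 1.96 FPKM (log2 fold change -0.33 with SE 0.054, adjusted p = 0.00154), and of *Gpam*, the first enzyme of glycerolipid synthesis, from 8.53 ± 0.452 to 7.04 ± 0.253 FPKM (log2 fold change -0.27 with SE 0.049, adjusted p = 0.00301). The desaturase *Fads1* fell from 15.2 ± 0.0874 to 13.7 ± 0.481 FPKM (log2 fold change -0.15 with SE 0.027, adjusted p = 0.00303), and *Fads2*, *Elovl1*, *Elovl5* and *Acly* by 0.08 to 0.17 on the log2 scale. *Fads2*, *Acly* and *Elovl5* no longer passed the adjusted p in 10, 7 and 3 alternatives, fits without 1 library among them. The rises were those of *Lpin1*, a phosphatidate phosphatase, from 2.65 ± 0.056 to 3.68 ± 0.226 FPKM (log2 fold change 0.46 with SE 0.072, adjusted p = 0.00131), and *Acsl4*, an acyl-CoA synthetase for polyunsaturated fatty acids, from 31.3 ± 0.616 to 35.2 ± 0.802 FPKM (log2 fold change 0.17 with SE 0.023, adjusted p = 0.000427). *Scd2* was the most abundant transcript of the list, at 525 to 539 FPKM with DMSO and 504 to 526 with fatostatin, and did not pass. *Pnpla3*, *Thrsp* and *Mlxipl* were below the minimum, with 0 to 10 reads per library. Of 12 sterol efflux and LXR target genes, *Scd1*, *Srebf1* and *Lpcat3* fell and *Abca1*, the cholesterol exporter, rose from 3.12 ± 0.139 to 3.85 ± 0.243 FPKM (log2 fold change 0.30 with SE 0.057, adjusted p = 0.00474).

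The 2 largest falls among called protein-coding genes were of targets of the aryl hydrocarbon receptor. This ligand-activated transcription factor pairs with ARNT and switches on enzymes that metabolize planar aromatic compounds, together with its own repressors. Of 7 tested members of this list, 5 fell, all 5 past the 1.5-fold threshold, against 6.31% and 0.502% of all genes, and the median log2 fold change was -1.26. The 2 that did not pass were the receptor and its partner themselves, *Ahr* at 14.1, 14.4 and 14.4 FPKM with DMSO and 15, 14.9 and 14.6 FPKM with fatostatin (log2 fold change 0.05 with SE 0.024, adjusted p = 0.207) and *Arnt* at 12 ± 0.208 FPKM with DMSO and 11.9 ± 0.0987 with fatostatin (log2 fold change -0.018 with SE 0.029, adjusted p = 0.754). *Cyp1a2* was not tested, for its low level.

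*Cyp1a1* (ENSMUSG00000032315, chromosome 9 from 57687928 to 57703824 of GRCm38), the cytochrome P450 most used as a readout of the receptor, was at 2.95, 2.63 and 2.68 FPKM with DMSO and 0.17, 0.126 and 0.213 FPKM with fatostatin, which came from 300 to 325 and 14 to 24 reads. The mean FPKM was 16.3-fold lower with fatostatin, with no overlap (log2 fold change -3.42 with SE 0.17, adjusted p = 1.21e-07). All log2 fold changes are of FPKM + 0.1, a pseudocount that makes those of low genes smaller. *Ahrr*, the receptor's repressor, was at 1.22, 1.35 and 1.21 FPKM with DMSO and 0.105, 0.141 and 0.133 FPKM with fatostatin, so that all fatostatin libraries lay far below the DMSO libraries, with a mean 9.95-fold lower (log2 fold change -2.59 with SE 0.11, adjusted p = 6.17e-08). *Cyp1b1*, a related cytochrome P450, had 56, 68 and 79 reads in the DMSO libraries and 0, 0 and 4 in the fatostatin libraries (log2 fold change -1.87 with SE 0.16, adjusted p = 1.56e-05). At these low counts, its log2 fold change ranged from -6.09 to -0.35 over the alternatives, with the smallest size at a pseudocount of 1 FPKM, where *Cyp1a1* came to -1.68 and *Nqo1* to -0.92. *Nqo1*, a quinone reductase, was at 3.99, 3.73 and 3.55 FPKM with DMSO and 1.74, 1.24 and 1.59 FPKM with fatostatin (log2 fold change -1.26 with SE 0.12, adjusted p = 2.5e-05). *Tiparp*, an ADP-ribosyltransferase that represses the receptor, was at 11.5, 11.3 and 11.8 FPKM with DMSO and 6.21, 6.22 and 6.07 FPKM with fatostatin (log2 fold change -0.89 with SE 0.04, adjusted p = 7e-08). These 5 genes stayed past the adjusted p in every alternative run on them, and an exon of *Tiparp* overlaps another gene on the opposite strand.

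The core of the sequence that the receptor binds, TNGCGTG, was searched after the values were seen. It was found in 1 of the 6 tested members with a promoter entry, against 5.07% of all promoters. This was *Ahrr*, whose last 80 bases before the start lie on the minus strand of GRCm38.p6 at chr13:74292332-74292411. Capitals mark the match, whose first base is at position -29 from the start.
Ahrr: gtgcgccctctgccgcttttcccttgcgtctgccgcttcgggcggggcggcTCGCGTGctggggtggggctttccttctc
The window reaches only 250 bases upstream, and enhancers farther away were not looked at.

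**Figure D2:**
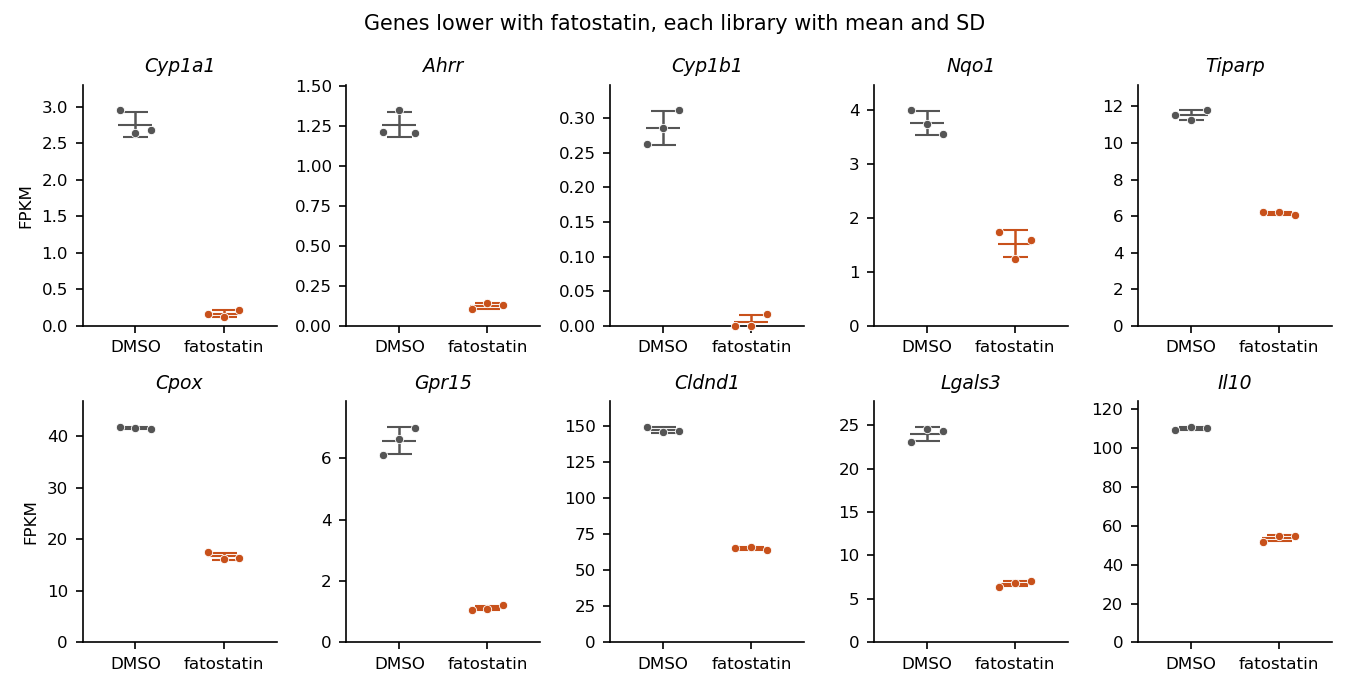
FPKM of 10 genes lower with fatostatin, with 1 panel per gene, 1 point per library, and the mean and SD of the 3 libraries of each group; each vertical axis starts at 0. In every panel the 3 fatostatin libraries sit below the 3 DMSO libraries.

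A run of 3 neighboring genes on chromosome 16 fell together. *Cpox*, *Gpr15* and *Cldnd1* lie within 64 kb of GRCm38, from 58670292 to 58734251, and were grouped here after their values were seen. *Gpr15*, a receptor that guides T cells to the large intestine and skin, was at 6.1, 6.62 and 6.99 FPKM with DMSO and 1.06, 1.09 and 1.21 FPKM with fatostatin, a mean 5.88-fold lower with fatostatin (log2 fold change -2.45 with SE 0.14, adjusted p = 5.93e-07). *Cpox*, an enzyme of heme synthesis, was at 41.8, 41.7 and 41.5 FPKM with DMSO and 17.5, 16.3 and 16.4 FPKM with fatostatin (log2 fold change -1.31 with SE 0.026, adjusted p = 1.32e-10). *Cldnd1*, a claudin-like membrane protein, was among the abundant transcripts, at 149, 146 and 146 FPKM with DMSO and 65.8, 65.9 and 64 FPKM with fatostatin (log2 fold change -1.17 with SE 0.022, adjusted p = 1.32e-10). The exons of *Cpox* and *Gpr15* overlap at their ends on opposite strands. Whether reads were counted by strand is not given in the sources used here, so that a part of the reads on either gene may belong to the other. Of the 5 genes tested within 200 kb of the run, these 3 passed the test. The other 2, *St3gal6* and *Or5k1*, had group means of at most 0.230 FPKM and log2 fold changes of -0.59 and -0.56 with adjusted p of 0.135 and 0.216.

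Other large falls were of genes with varied roles. *Car8*, a carbonic anhydrase-related protein, was at 1.81, 1.8 and 1.97 FPKM with DMSO and 0.281, 0.423 and 0.4998 FPKM with fatostatin (log2 fold change -1.99 with SE 0.16, adjusted p = 8.92e-06), and *Lgals3*, the lectin galectin-3, at 23, 24.6 and 24.3 FPKM with DMSO and 6.39, 6.86 and 7.02 FPKM with fatostatin (log2 fold change -1.81 with SE 0.084, adjusted p = 8.61e-08). For both, the groups were far apart. *Gpr55*, a lysophospholipid receptor, fell from 5.13 ± 0.196 to 1.89 ± 0.163 FPKM (log2 fold change -1.40 with SE 0.072, adjusted p = 2.18e-07), and *Mlkl*, the executor of necroptosis, from 14.4 ± 0.176 to 5.65 ± 0.315 FPKM (log2 fold change -1.33 with SE 0.044, adjusted p = 6.83e-09). *Neurl3*, a ubiquitin ligase, fell from 29.2 ± 0.835 to 12.1 ± 0.983 FPKM and *Rasgrp4*, an activator of Ras, from 10.7 ± 0.423 to 4.47 ± 0.229 FPKM, with log2 fold changes of -1.27 and -1.24. *Pdpn*, the membrane mucin podoplanin, fell from 16.8 ± 0.738 to 7.14 ± 0.0855 FPKM (log2 fold change -1.22 with SE 0.04, adjusted p = 5.81e-09). With *Cyp1a1*, *Nqo1* and the 3 genes of chromosome 16, these are the 12 genes with the largest falls at a mean of at least 1 FPKM. The exons of *Gpr55* and *Rasgrp4* overlap those of other genes on the opposite strand.

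Most of the p53 targets measured were higher with fatostatin. p53 is a transcription factor that is kept low by MDM2 and that, on DNA damage and other stress, switches on genes that stop the cell cycle, repair DNA or start apoptosis. Of the 20 tested members of this list, 18 rose and 0 fell, 13 of them past the 1.5-fold threshold, against 7.69% and 1.35% of all genes, and the median log2 fold change was 0.655. In all 18 the fatostatin libraries lay above the DMSO libraries. The 2 that did not pass were *Trp53* itself, at 52.8, 51.3 and 54.3 FPKM with DMSO and 52.8, 53.9 and 56.2 FPKM with fatostatin (log2 fold change 0.039 with SE 0.029, adjusted p = 0.438), and *Xpc* (3.82 ± 0.266 to 4.02 ± 0.298 FPKM, log2 fold change 0.071 with SE 0.064, adjusted p = 0.537).

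Among the genes that arrest the cycle, *Cdkn1a*, the inhibitor p21 of cyclin-dependent kinases, was at 26, 26.3 and 26.3 FPKM with DMSO and 50.9, 52.5 and 53.3 FPKM with fatostatin, with little spread within groups (log2 fold change 0.99 with SE 0.022, adjusted p = 2.89e-10). *Ccng1*, cyclin G1, was the most abundant of the list, at 113, 109 and 112 FPKM with DMSO and 172, 169.7 and 173 FPKM with fatostatin (log2 fold change 0.62 with SE 0.018, adjusted p = 2.57e-09). *Mdm2*, which marks p53 for degradation and is itself a target, was at 14, 13.5 and 13.6 FPKM with DMSO and 22.2, 21.6 and 21.8 FPKM with fatostatin (log2 fold change 0.67 with SE 0.026, adjusted p = 2.67e-08). The apoptosis genes *Bbc3* (PUMA) and *Pmaip1* (NOXA) rose from 2.58 ± 0.245 to 5.25 ± 0.251 FPKM (log2 fold change 1.00 with SE 0.12, adjusted p = 0.000214) and from 5.5 ± 0.202 to 10.2 ± 0.711 FPKM (log2 fold change 0.87 with SE 0.051, adjusted p = 5.93e-07). *Bax* and the death receptor *Fas* rose by less than 1.5-fold, with log2 fold changes of 0.34 and 0.55. *Trp53inp1*, a stress-induced nuclear protein, was at 13.8, 14.5 and 13.6 FPKM with DMSO and 32.5, 29.96 and 30.2 FPKM with fatostatin and had the largest rise of the list (log2 fold change 1.14 with SE 0.036, adjusted p = 5.18e-09). *Phlda3*, an inhibitor of Akt, *Plk2*, a Polo-like kinase, and *Sesn2*, an inhibitor of mTORC1, rose by 1.04, 1.04 and 0.98 on the log2 scale. *Zmat3*, *Aen* and *Polk* rose by 0.76, 0.67 and 0.61. *Eda2r*, at 14 to 22 reads with DMSO and 41 to 46 with fatostatin, had a log2 fold change of 0.64 and an adjusted p of 0.0348. It no longer passed the adjusted p in 9 alternatives, the 6 fits without 1 library among them. An exon of *Cdkn1a* overlaps an unnamed gene on the opposite strand.

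**Figure D3:**
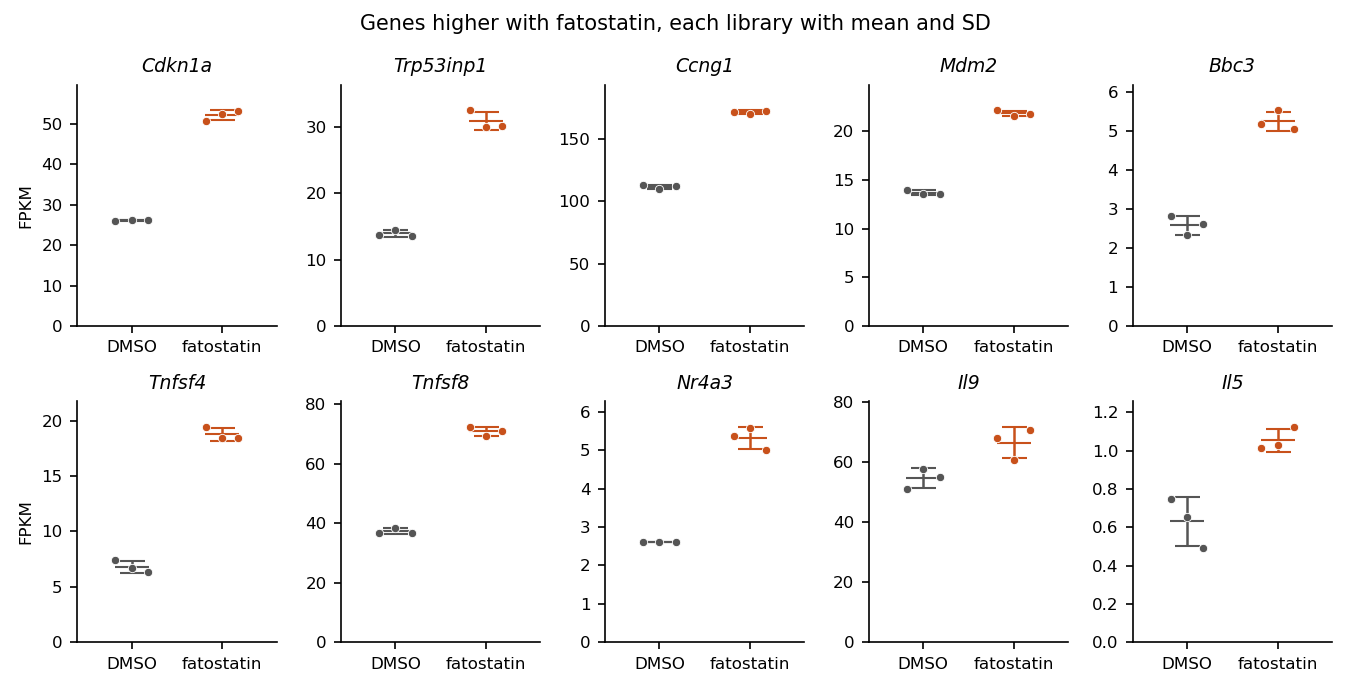
FPKM of 10 genes higher with fatostatin, drawn as for the lower genes, with 1 point per library and the mean and SD of each group. The 3 fatostatin libraries sit above the 3 DMSO libraries in every panel. *Il9*, with means of 54.6 and 66.5 FPKM, is the smallest rise shown.

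Many mitotic genes and tubulins fell, by small amounts. Of 26 mitosis genes, 14 fell (53.8%, against 6.31% of all genes) and 0 rose (against 7.69%), with a median log2 fold change of -0.158, and none reached 1.5-fold. *Cdk1*, the kinase that starts mitosis, was at 37.5, 36.9 and 37 FPKM with DMSO and 31.6, 31.6 and 31.5 FPKM with fatostatin (log2 fold change -0.23 with SE 0.021, adjusted p = 2.28e-05), and *Aurkb*, of the chromosomal passenger complex, at 62.5, 62.6 and 64.7 FPKM with DMSO and 53.5, 55.1 and 54.6 FPKM with fatostatin (log2 fold change -0.22 with SE 0.022, adjusted p = 5.07e-05). In both genes the groups did not overlap. *Mki67*, the marker Ki-67 of cycling cells, was at 151 ± 3.89 FPKM with DMSO and 145 ± 9.49 with fatostatin and did not pass the test (log2 fold change -0.056 with SE 0.054, adjusted p = 0.568). In the DNA replication list, 4 of 29 fell (13.8%) and 1 rose (3.45%), of which *Gins2* fell most (12.2 ± 0.145 to 11 ± 0.282 FPKM, log2 fold change -0.15 with SE 0.03, adjusted p = 0.00582). Of 13 tubulins, 8 fell (61.5%) and 0 rose, with a median of -0.257. *Tubb5*, the main β-tubulin here, fell from 669.9 ± 6.89 to 535 ± 11.8 FPKM (log2 fold change -0.32 with SE 0.022, adjusted p = 2.15e-06), *Tuba1b* from 504 ± 19.5 to 382 ± 12 FPKM (log2 fold change -0.40 with SE 0.038, adjusted p = 3.44e-05), and *Tuba8* from 3.55 ± 0.146 to 2.24 ± 0.142 FPKM, the only tubulin past both the adjusted p and 1.5-fold (log2 fold change -0.65 with SE 0.079, adjusted p = 0.00021). *Tubb3*, with means of 0.485 ± 0.275 to 0.124 ± 0.0397 FPKM, had a larger estimated change that did not pass (log2 fold change -1.26 with SE 0.39, adjusted p = 0.0554). *Tuba1a*, *Tuba1b* and *Tuba1c* are near-identical in sequence, and how their shared reads were assigned is not given.

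Many genes of the amino acid stress response fell as well. ATF4 is the transcription factor that raises amino acid synthesis and transport when amino acids run short or translation initiation is checked. Of 26 tested members, 13 fell (50%, against 6.31% of all genes) and 2 rose (7.69%, the share among all genes), with a median of -0.198. *Atf4* itself fell from 97.3 ± 1.71 to 76.9 ± 1.31 FPKM (log2 fold change -0.34 with SE 0.022, adjusted p = 1.39e-06). *Chac1*, which degrades glutathione, was at 2.32, 2.62 and 2.33 FPKM with DMSO and 1.16, 1.5 and 1.31 FPKM with fatostatin (log2 fold change -0.83 with SE 0.12, adjusted p = 0.000569), and *Trib3*, a pseudokinase, at 7.91, 7.18 and 7.74 FPKM with DMSO and 4.95, 4.97 and 4.91 FPKM with fatostatin (log2 fold change -0.61 with SE 0.09, adjusted p = 0.00087). These were the 2 falls past 1.5-fold. *Asns*, *Psat1*, *Psph*, *Shmt2*, *Mthfd2*, *Slc7a5* and *Slc3a2*, for synthesis and uptake of amino acids and one-carbon units, fell by 0.13 to 0.28. The rises were those of *Atf3* (0.37) and of *Sesn2*, which is also on the p53 list. The amino acid response element TGATGNAA was found in the promoters of 6 of the 22 tested members with an entry (*Asns*, *Atf3*, *Chac1*, *Nupr1*, *Pck2* and *Trib3*), against 3.97% of all promoters. The stretch of *Chac1*, the largest fall, lies on the plus strand of GRCm38.p6 at chr2:119351012-119351091, with the match in capitals, on the reverse strand and with its first base at position -193 from the start.
Chac1: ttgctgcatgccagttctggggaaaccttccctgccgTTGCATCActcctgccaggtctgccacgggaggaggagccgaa
The same letters stand before *Atf3*, which rose. All motifs were searched on both strands. The antioxidant element TGACNNNGC was found in 8 of these 22 and the CCAAT box in 14, against 12.4% and 37.4% of all promoters.

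In the unfolded protein response, 7 of 21 genes fell (33.3%, against 6.31% of all genes) and 1 rose (4.76%), none by 1.5-fold. *Pdia6*, a disulfide isomerase, fell from 96.3 ± 1.83 to 88.1 ± 1.26 FPKM (log2 fold change -0.13 with SE 0.019, adjusted p = 0.000729), while *Canx*, the chaperone calnexin, rose from 253 ± 1.85 to 278 ± 1.74 FPKM (log2 fold change 0.14 with SE 0.015, adjusted p = 0.000104). *Hspa5*, the chief chaperone of the endoplasmic reticulum, was at 203 ± 2.23 FPKM with DMSO and 199 ± 1.51 with fatostatin (log2 fold change -0.028 with SE 0.018, adjusted p = 0.361). Of 19 tested NRF2 antioxidant genes, 5 fell (26.3%) and 1 rose (5.26%), and *Nqo1*, shared with the aryl hydrocarbon receptor list, was the only one past 1.5-fold. *Hmox1* was at 2.93 ± 0.29 FPKM with DMSO and 2.56 ± 0.114 with fatostatin and did not pass (log2 fold change -0.19 with SE 0.09, adjusted p = 0.216).

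**Figure D4:**
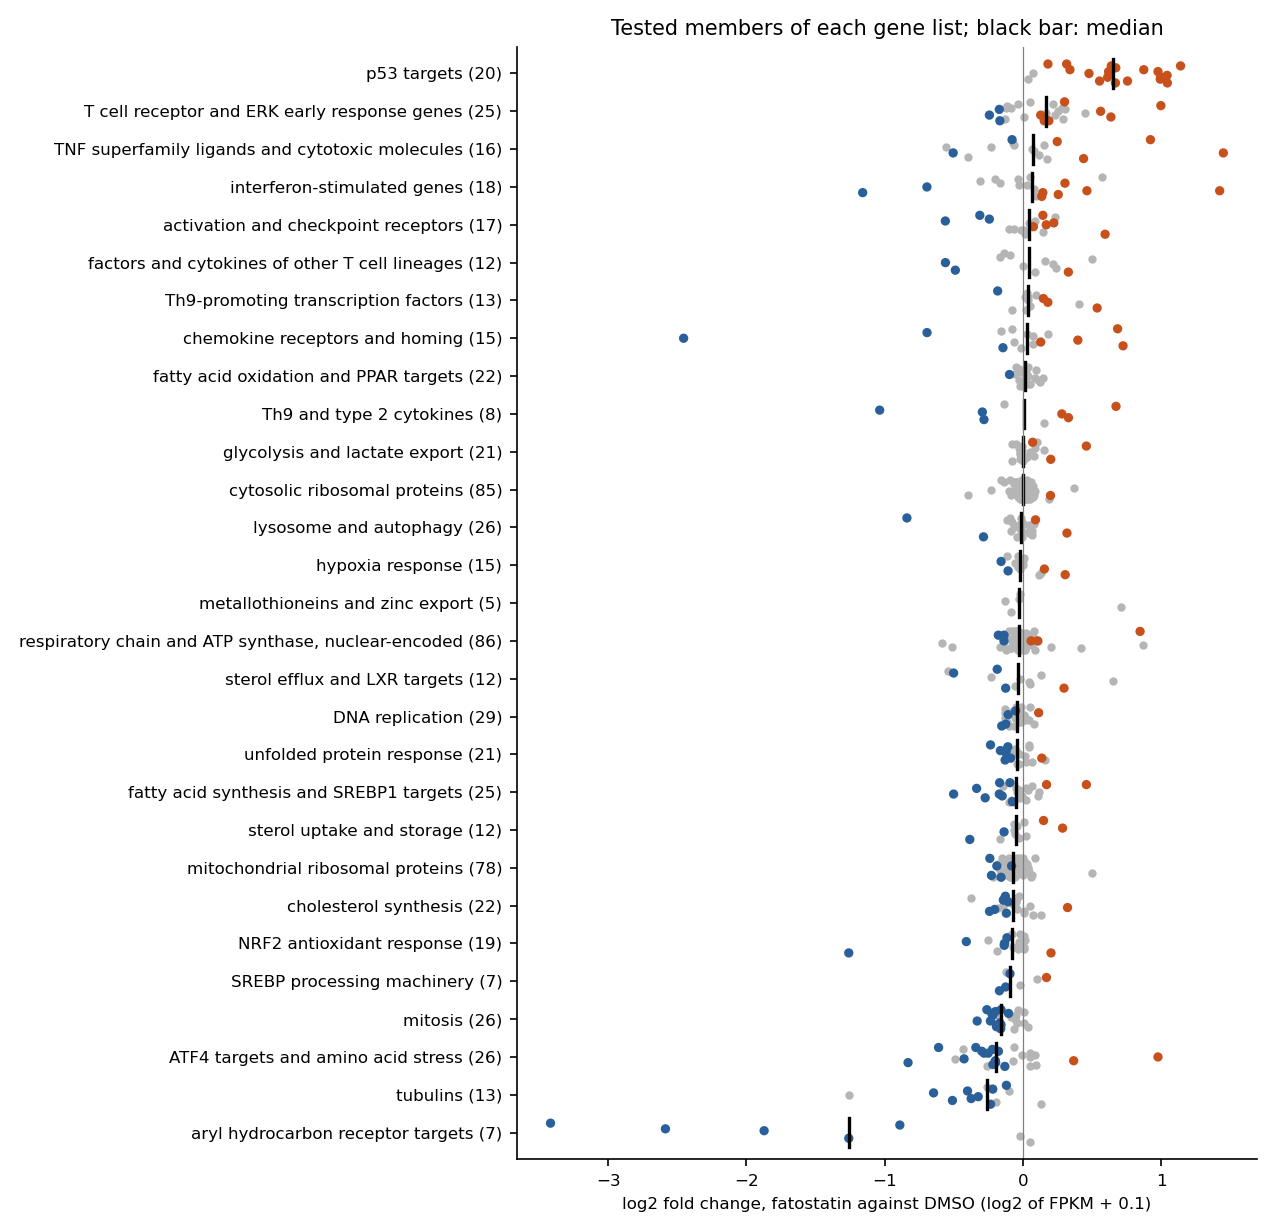
Log2 fold change of fatostatin against DMSO for each tested member of the 29 gene lists, sorted by the median (black bar), with the number tested in parentheses. Genes higher at a limma adjusted p below 0.05 are orange, genes lower are blue and the others gray. The p53 list stands highest with a median of 0.655, and the aryl hydrocarbon receptor list lowest with -1.26; the lipid lists lie close to 0.

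The cytokines of Th9 and type 2 cells were split, with 3 higher and 3 lower of 8 tested. These were 37.5% each, against 7.69% and 6.31% of all genes. Of 13 factors that promote Th9 cells, 3 were higher (23.1%) and 1 lower (7.69%). Of 12 genes of other lineages, 1 was higher (8.33%) and 2 lower (16.7%). *Il9*, the cytokine that names the lineage, was at 51, 57.7 and 55.1 FPKM with DMSO and 67.9, 60.7 and 70.8 FPKM with fatostatin (log2 fold change 0.28 with SE 0.057, adjusted p = 0.00652), a rise of 1.22-fold that did not reach 1.5-fold. *Il13* rose from 8.82 ± 0.135 to 11.1 ± 0.581 FPKM (log2 fold change 0.33 with SE 0.068, adjusted p = 0.00737), and *Il5*, which supports eosinophils, was at 0.746, 0.653 and 0.494 FPKM with DMSO and 1.01, 1.03 and 1.124 FPKM with fatostatin from 33 to 70 reads (log2 fold change 0.67 with SE 0.15, adjusted p = 0.0107). *Il10*, which restrains inflammation, was at 109, 111 and 110.2 FPKM with DMSO and 51.8, 54.5 and 54.6 FPKM with fatostatin, with the groups far apart (log2 fold change -1.04 with SE 0.024, adjusted p = 2.89e-10). *Il4* fell from 8.71 ± 0.389 to 7.15 ± 0.365 FPKM (log2 fold change -0.28 with SE 0.055, adjusted p = 0.00527) and *Il24* from 77.2 ± 0.829 to 63 ± 0.754 FPKM (log2 fold change -0.29 with SE 0.023, adjusted p = 6.71e-06). *Il21* and *Csf2* did not pass the test, and *Il2* and *Il3* were too low to test. Among the 13 tested transcription factors that promote Th9 cells, *Smad3*, of the TGF-β pathway, rose from 6.58 ± 0.289 to 9.59 ± 0.357 FPKM (log2 fold change 0.54 with SE 0.049, adjusted p = 2.5e-05), *Stat5a* and *Gata3* rose by 0.18 and 0.15, and *Foxo1* fell from 49.4 ± 0.858 to 43.5 ± 0.732 FPKM (log2 fold change -0.18 with SE 0.022, adjusted p = 0.00021). *Irf4* and *Batf* did not pass (0.055 and -0.081). Of genes of other lineages, *Maf*, a driver of *Il10* in T cells, fell from 16.7 ± 0.152 to 11.9 ± 0.179 FPKM (log2 fold change -0.49 with SE 0.028, adjusted p = 5.12e-07), *Il17f* fell by 0.56, and *Tbx21*, the Th1 factor T-bet, rose from 3.91 ± 0.05005 to 4.95 ± 0.237 FPKM (log2 fold change 0.33 with SE 0.077, adjusted p = 0.015). *Tbx21* no longer passed the adjusted p without fatostatin replicate 2 or 3.

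Surface molecules of T cells included some of the larger rises. Among 16 tested TNF superfamily ligands and cytotoxic molecules, 4 rose (25%, against 7.69% of all genes) and 2 fell (12.5%, against 6.31%). *Tnfsf4*, OX40 ligand, was at 7.42, 6.7 and 6.33 FPKM with DMSO and 19.4, 18.4 and 18.4 FPKM with fatostatin (log2 fold change 1.45 with SE 0.056, adjusted p = 2.64e-08), and *Tnfsf8*, CD30 ligand, at 36.7, 38.6 and 36.9 FPKM with DMSO and 72.5, 69.5 and 71 FPKM with fatostatin (log2 fold change 0.92 with SE 0.026, adjusted p = 2.57e-09). In both, every fatostatin library was well above every DMSO library. *Tnfsf11*, RANK ligand, and *Ltb*, lymphotoxin β, rose by 0.44 and 0.25, and granzyme A (*Gzma*) fell from 35.7 ± 2.31 to 25.2 ± 2.54 FPKM (log2 fold change -0.50 with SE 0.078, adjusted p = 0.00123). *Tnf* was at 4.47, 3.72 and 4.11 FPKM with DMSO and 3.59, 3.57 and 4.61 FPKM with fatostatin, and the groups overlapped (log2 fold change -0.068 with SE 0.096, adjusted p = 0.716). Of 17 activation and checkpoint receptors, 5 rose (29.4%) and 3 fell (17.6%). *Btla*, an inhibitory receptor, rose from 5.47 ± 0.0375 to 8.32 ± 0.632 FPKM (log2 fold change 0.59 with SE 0.05, adjusted p = 1.4e-05), *Ctla4* and *Cd44* rose by 0.17 and 0.22, and *Cd160*, *Cd28* and *Icos* fell by 0.56, 0.31 and 0.24. *Pdcd1*, which encodes PD-1, was at 11.4, 11.5 and 11.6 FPKM with DMSO and 12.7, 12 and 11.9 FPKM with fatostatin (log2 fold change 0.085 with SE 0.047, adjusted p = 0.282), and *Cd69* at 0.927, 1.02 and 1.07 FPKM with DMSO and 1.004, 1.3 and 1.32 FPKM with fatostatin (log2 fold change 0.23 with SE 0.10, adjusted p = 0.165). Neither passed the test, although the *Pdcd1* values did not overlap. *Cd69* passed the adjusted p without fatostatin replicate 1.

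Homing receptors also moved in both directions, with 4 higher (26.7%, against 7.69% of all genes) and 3 lower (20%, against 6.31%) of 15. *Itga4*, the integrin chain α4, was at 2.73, 2.99 and 2.85 FPKM with DMSO and 5.02, 4.72 and 4.61 FPKM with fatostatin (log2 fold change 0.72 with SE 0.066, adjusted p = 2.5e-05). *Itgae*, the chain αE (CD103) that binds E-cadherin, was at 19.99, 20.1 and 19.98 FPKM with DMSO and 12.1, 12.8 and 12.1 FPKM with fatostatin (log2 fold change -0.69 with SE 0.029, adjusted p = 4.36e-08). Both were past 1.5-fold, as was *Gpr15*. *Ccr7*, *Ccr4* and *Ccr8* were abundant. *Ccr7* rose from 184 ± 0.105 to 201 ± 5.26 FPKM (log2 fold change 0.13 with SE 0.019, adjusted p = 0.000977), and *Ccr4* and *Ccr8* did not pass (-0.013 and -0.078).

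Of 25 tested early response genes of the T cell receptor and ERK, 7 rose (28%, against 7.69% of all genes) and 3 fell (12%, against 6.31%), with a median of 0.166. *Nr4a3*, a nuclear receptor induced by antigen receptor signals, was at 2.61, 2.62 and 2.6 FPKM with DMSO and 5.36, 5.58 and 5.01 FPKM with fatostatin (log2 fold change 1.00 with SE 0.048, adjusted p = 1.21e-07), and *Egr1*, a zinc finger factor downstream of ERK, at 0.883, 0.901 and 1.21 FPKM with DMSO and 1.63, 1.5 and 1.64 FPKM with fatostatin (log2 fold change 0.64 with SE 0.14, adjusted p = 0.00897). *Egr3* rose by 0.56, and the phosphatases *Dusp5*, *Dusp10* and *Dusp4* by 0.30, 0.19 and 0.13. *Nr4a1*, *Fos* and *Myc* did not pass, with log2 fold changes of 0.25, -0.12 and -0.035. *Junb*, *Fosl2* and *Ier3* fell by 0.17, 0.17 and 0.24.

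The remaining rises of the 12 largest at a mean of at least 1 FPKM were mostly of weakly expressed genes. *Ak1*, adenylate kinase 1, was at 0.548, 0.491 and 0.816 FPKM with DMSO and 2.43, 2.18 and 2.38 FPKM with fatostatin (log2 fold change 1.78 with SE 0.15, adjusted p = 1.49e-05), *Art2b*, a surface ADP-ribosyltransferase, at 0.667, 0.805 and 0.594 FPKM with DMSO and 2.45, 2.47 and 2.6 FPKM with fatostatin (log2 fold change 1.73 with SE 0.21, adjusted p = 0.000183), and *Zfp385a*, a zinc finger protein that binds p53, at 1.51, 1.6 and 1.84 FPKM with DMSO and 5.52, 5.4 and 5.47 FPKM with fatostatin (log2 fold change 1.67 with SE 0.081, adjusted p = 1.21e-07). In all of these, every fatostatin library was far above every DMSO library. *Slc4a11*, a borate transporter-like membrane protein, rose from 3.39 ± 0.192 to 8.34 ± 0.114 FPKM (log2 fold change 1.27 with SE 0.04, adjusted p = 5.18e-09), and *Cd80*, a ligand of CD28 and CTLA-4, from 1.19 ± 0.0427 to 2.81 ± 0.081 FPKM (log2 fold change 1.17 with SE 0.066, adjusted p = 4.53e-07). *Zfp365*, *Pierce1* and *Crip2* rose by 1.16, 1.26 and 1.10, and the non-coding genes *9230114K14Rik* and *C130083M11Rik* by 1.34 and 1.33.

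Interferon-stimulated genes were split, with 6 higher (33.3%, against 7.69% of all genes) and 2 lower (11.1%, against 6.31%) of 18 tested. *Mx1*, at 0.245, 0.304 and 0.334 FPKM with DMSO and 0.828, 0.948 and 1.1 FPKM with fatostatin, rose most (log2 fold change 1.42 with SE 0.19, adjusted p = 0.000386), and the GTPases *Gbp3*, *Gbp2* and *Igtp* rose by 0.46, 0.30 and 0.26. *Ifitm1* fell from 1.39 ± 0.0822 to 0.587 ± 0.205 FPKM (log2 fold change -1.16 with SE 0.21, adjusted p = 0.00339) and *Ifitm3* from 3.57 ± 0.333 to 2.24 ± 0.695 FPKM (log2 fold change -0.69 with SE 0.20, adjusted p = 0.0403). The *Ifitm* genes are related members of 1 family. *Ifitm3* no longer passed the adjusted p in 7 alternatives, among them the fits without DMSO replicate 1, 2 or 3 or fatostatin replicate 2. *Isg15* did not pass (-0.17).

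Metabolic lists outside lipid synthesis changed in few members. Glycolysis had 3 higher (14.3%) and 0 lower of 21 genes, led by *Ldhb*, the lactate dehydrogenase chain that favors pyruvate formation (17.5 ± 0.325 to 24.2 ± 1.43 FPKM, log2 fold change 0.46 with SE 0.051, adjusted p = 0.000109), with *Slc2a3*, a glucose transporter, at 0.20. Among nuclear-encoded respiratory chain and ATP synthase genes, 3 were higher and 3 lower of 86 (3.49% each, against 7.69% and 6.31% of all genes), and *Cox6b2* was the only one past both the adjusted p and 1.5-fold (3.44 ± 0.582 to 6.22 ± 0.462 FPKM, log2 fold change 0.85 with SE 0.14, adjusted p = 0.00187). *Ndufs6b* and *Ndufb4c* had log2 fold changes of 0.87 and -0.59 and did not pass. Fatty acid oxidation had 1 lower of 22, *Hadh* (-0.10), mitochondrial ribosomal proteins 5 lower of 78, or 6.41% (*Mrpl46* and *Mrpl58* at -0.19 and -0.24 among them), and cytosolic ribosomal proteins 1 higher of 85, *Rps27l* (0.19). *Hadh*, *Mrpl46*, *Mrpl58* and *Rps27l* no longer passed the adjusted p in 7, 5, 2 and 2 alternatives, fits without 1 library among them. Hypoxia genes had 2 higher and 2 lower of 15 (13.3% each), with *Bnip3* at -0.16 and *Bnip3l* at 0.16. None of 5 metallothionein and zinc export genes passed, with *Mt1* at -0.085 and *Mt3*, from 0 to 9 reads, at 0.71. Of 26 lysosome and autophagy genes, *Gpnmb* fell from 0.482 ± 0.0352 to 0.226 ± 0.0359 FPKM (log2 fold change -0.84 with SE 0.15, adjusted p = 0.0033), *Rragd* fell by 0.28, and *Ctsd*, cathepsin D, and *Lamp1* rose by 0.32 and 0.091.

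The cells given EpA show how these genes moved in a contrast of 6 other libraries, which share with the first contrast the variance estimate and the minimum level. There, 1266 genes were higher (9.22%) and 933 lower (6.79%) with both compounds than with EpA alone at an adjusted p below 0.05. Of the 186 genes called higher with fatostatin alone, 172 were higher with EpA present as well (92.5%, against 54.3% of all genes), and 133 (71.5% of the 186) were also past the adjusted p. Among the 69 called lower, 62 were lower (89.9%, against 45.6%) and 51 (73.9%) passed. The median log2 fold change of the called genes was 0.811 without and 0.670 with EpA for those higher, and -0.890 and -0.686 for those lower. The first value of each pair comes from the contrast that made the calls, and the second from the other 6 libraries. The called genes with the opposite sign, 12 higher and 7 lower without EpA, did not pass the test with EpA in any case, and 9 and 5 of them averaged less than 1 FPKM. The remaining 2 of those higher, *Gm24940* and *Snord118*, had a log2 fold change of 0 with EpA.

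**Figure D5:**
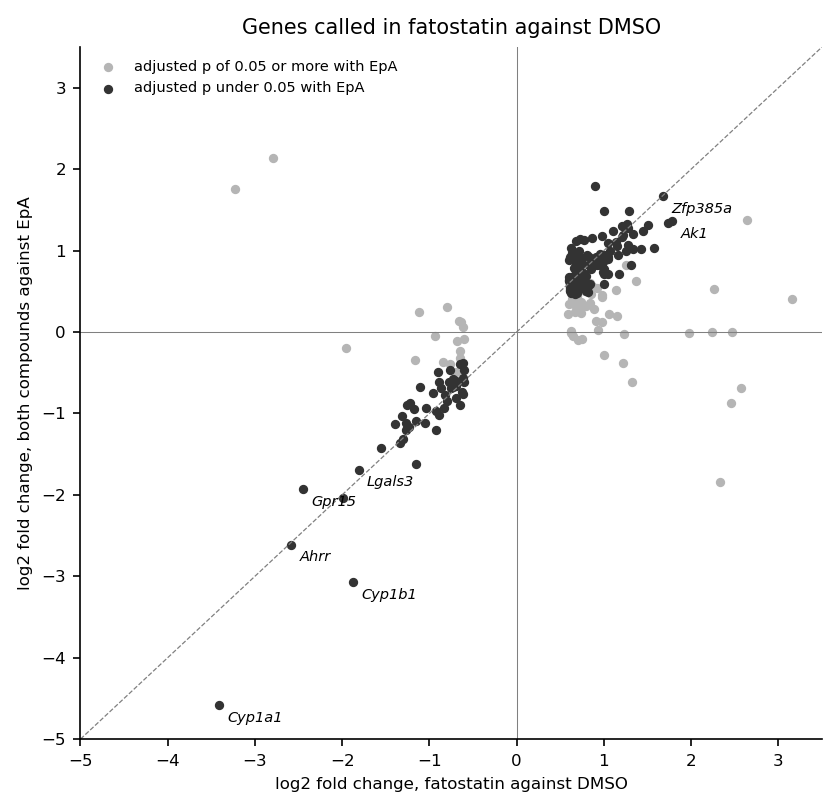
Each point is 1 of the 255 genes called in fatostatin against DMSO. The horizontal axis gives its log2 fold change there and the vertical axis its log2 fold change for both compounds against EpA, from 6 other libraries; the dashed line marks equal changes. Dark points passed an adjusted p below 0.05 with EpA and have the same sign on both axes, and of the 12 and 7 genes with opposite signs, 9 and 5 average less than 1 FPKM.

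With EpA present, the p53 list had 18 higher and 0 lower genes of 20 tested (median 0.642). Of all genes in this contrast, 9.22% were higher and 6.79% lower. The aryl hydrocarbon receptor list had 0 higher and 5 lower of 7 (median -1.17), and mitosis 0 and 19 of 26 (-0.173). Tubulins had 1 and 8 of 13 (-0.252), and the ATF4 list 2 and 12 of 26 (-0.129). Cholesterol synthesis had 2 higher and 5 lower genes of 22 (median -0.0686), and the fatty acid list 2 and 6 of 25 (-0.0605). The SREBP processing list, with 1 higher and 3 lower of 7 without EpA (median -0.0932), had 2 and 2 with EpA (0.00348). Sterol uptake and storage had 1 higher and 2 lower of 12 with EpA (-0.00389). *Cyp1a1* was at 312, 315 and 375 reads with EpA and at 6, 0 and 4 with both compounds, and *Cpox*, *Gpr15* and *Cldnd1* fell with both compounds by 1.03, 1.93 and 0.94 on the log2 scale. *Il9* stood at 639.96 ± 17.5 FPKM with EpA and 821 ± 29.7 with both compounds (SD, n = 3), a log2 fold change of 0.36, adjusted p = 0.00132. Its 2 changes, with and without EpA, did not differ past the test (adjusted p = 0.892). *Cd69*, which did not pass with fatostatin alone, passed here (0.43, adjusted p = 0.013), but the difference between its 2 changes did not (adjusted p = 0.816).

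A test of the difference between the effects of fatostatin with and without EpA passed for 6 genes (0.0437%), *Cpox*, *Cldnd1*, *Cdkn1a*, *Nr4a3*, *Rara* and *Neat1*, and the unadjusted p was below 0.05 for 1083. The number was 0 to 2 without 1 library, 0 with median ratio scaling or the replicate block, 1 with TPM scaling and 20 with voom. EpA alone against DMSO is a comparison that shares the DMSO libraries, so its values are only set beside those of fatostatin here. The log2 fold change of *Cdkn1a* was 0.99 with fatostatin and 0.99 with EpA. The same 2 values were -1.04 and 0.31 for *Il10*, -0.69 and -1.22 for *Itgae*, -3.42 and 0.091 for *Cyp1a1*, -0.50 and -0.11 for *Scd1*, and 0.28 and 3.55 for *Il9*.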

How the data were processed

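Total RNA of Th9 cells was made into TruSeq libraries, and the authors deposited 1 table of FPKM values for 12 libraries, made by trimming (Trim Galore), alignment to GRCm38 (HISAT2) and gene counting (featureCounts). Their versions are given only in part, and the strand setting is not given in the sources used here. All 12 columns matched a labelled sample. The table held 32051 genes, and 301 further lines that repeated a gene with the same values were dropped.

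Genes averaging 0.1 FPKM or more across all 12 libraries entered a limma 3.58.1 test in R 4.3.3 on log2(FPKM + 0.1), by 1 fit of 4 group means with an intensity trend, and p-values were adjusted by the method of Benjamini and Hochberg over all 13733 genes. Calls needed both an adjusted p under 0.05 and a change of 1.5-fold or more. An exact permutation test of 3 against 3 libraries cannot go below p = 0.1. With the exon lengths of GRCm38, 98.41 to 98.56% of the values were whole reads within 0.05, and these reads are the depths given and enter the voom alternative. More genes had 2 reads than 1 read in every library, so that single reads may not be independent fragments, and read numbers cover counting error only.

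The comparison, its gene lists and its members were chosen with earlier results of these data known. Genes were named by rule: the 12 largest rises and the 12 largest falls of called genes that averaged 1 FPKM or more and whose groups did not overlap, the members of the 4 lipid lists, *Il9*, *Tnf*, *Cd69*, *Pdcd1*, *Srebf1* and *Fads1*, the called members of the other lists or, where none was called, the 2 with the smallest p, and the 5 genes with the smallest p in the test of the difference. Further list members were named after their values were seen. Promoters and their coordinates are those of RefSeq on GRCm38.p6, matched by gene symbol. Alternatives were another pseudocount, minimum level, fold, scaling, trend and fit, voom, a replicate block and leaving out each library. Some genes are not reported here.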

Additional observations from a re-analysis of the deposited data

Results flagged for a closer look

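For 6 genes the change with fatostatin differed between cells with and without EpA in limma's test of the difference, at an adjusted p of 0.0372 each. In 12 of the 20 alternatives no gene passed this test, among them median ratio scaling and the replicate block, and 1 passed with TPM scaling. The difference, as the log2 fold change with EpA minus that without, was 0.286 for *Cpox* and 0.228 for *Cldnd1*, whose log2 fold changes were -1.31 and -1.17 without and -1.03 and -0.94 with EpA. It was -0.254 for *Cdkn1a*, which rose by 0.99 without and 0.74 with EpA. *Nr4a3*, a nuclear receptor induced by antigen receptor signals, differed by 0.490, rising by 1.00 and 1.49. *Rara*, the retinoic acid receptor α, differed by 0.328, with changes of -0.39 and -0.06, of which only the first passed the test. *Neat1*, the non-coding RNA of paraspeckles, differed by 0.335, falling by 0.19 without and rising by 0.15 with EpA, and small RNA genes on the same strand overlap it.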

How the results depend on the processing

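Of 104 named genes past the adjusted p, 87 stayed past it with the same direction in all alternatives run on them, up to 15 each, 17 lost it in at least 1 and 0 reversed, and 8 others passed in at least 1. The 186 higher and 69 lower genes became 55 and 34 with a pseudocount of 1 FPKM and 498 and 226 with a fold threshold of 1.2, and the higher genes 97 with a minimum mean of 1 FPKM. Without 1 library there were 157 to 174 higher and 58 to 83 lower genes, and 786 to 852 higher and 615 to 717 lower at the adjusted p alone. The 273 genes called with EpA present became 147 with the minimum of 1 FPKM, 84 with the pseudocount of 1 FPKM, 848 with the fold threshold of 1.2 and 233 to 262 without 1 library. The 6 genes whose change differed with EpA became 1 with TPM scaling, 0 with median ratio scaling, 20 with voom and 0 to 2 without 1 library; 12 of 20 alternatives gave 0, with 940 to 1144 genes at an unadjusted p below 0.05. The cause was not tested. The median of the cholesterol list, -0.0709, ran from -0.0846 to -0.0676 without 1 library, the former without fatostatin replicate 3. That of the fatty acid list, -0.0472, was -0.0620 with the minimum of 1 FPKM and -0.0647 to -0.0482 without 1 library. Scaling moved the median of all genes from 0.00535 to -0.00136 by median ratios and 0.0110 by TPM. Deviations of same-numbered DMSO and fatostatin libraries had r of -0.0472 to 0.0030, against -0.0051 to 0.0492 for other pairs of these groups. Over all 4 groups they had r of -0.0472 to 0.0744, against -0.0859 to 0.0492. None was above 0.1, and the numbers were not taken as a pairing. With the replicate block there were 182 higher and 70 lower genes, 982 and 828 at the adjusted p alone, 266 with EpA present and 0 for the difference. Leaving out both replicate 1 libraries, an alternative chosen after seeing the data, gave 144 and 66. Depth limits genes below 1 FPKM, and 11 called genes had at most 3 reads in every library of a group.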

Other observations

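The following genes were on none of the lists and were chosen after their values were seen. All passed limma's test and the 1.5-fold threshold with a mean of about 1 FPKM or more, and for each of them the 3 and 3 libraries did not overlap. *Tnfrsf10b*, the death receptor for TRAIL, rose from a mean of 3.42 to 6.62 FPKM (log2 fold change 0.93, adjusted p = 1.89e-06), and *Pidd1*, a death domain protein induced by p53, from 8.38 to 13.0 FPKM (0.63, adjusted p = 1.22e-05). *Ercc5*, the endonuclease XPG of nucleotide excision repair, rose from 4.72 to 8.59 FPKM (0.85, adjusted p = 3.43e-08). *Psrc1* and *Gtse1*, proteins of the mitotic spindle and of the G2 and S phases, rose from 15.1 to 26.3 and from 42.1 to 66.1 FPKM, while the mitosis list had no member that rose. With EpA present, these 5 genes rose by 0.51 to 0.83 on the log2 scale, all past the adjusted p.

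*Ccl22* and *Ccl17*, the chemokines that bind CCR4, rose from 2.19 to 3.79 and from 0.991 to 1.54 FPKM, and *Cd83*, an activation marker, from 37.2 to 57.4 FPKM. *P2rx7*, the receptor for extracellular ATP, rose from 5.92 to 9.10 FPKM, and *Foxo3*, a transcription factor of quiescence and stress, from 7.17 to 11.3 FPKM. *Cd200r1*, an inhibitory receptor with close relatives in its gene family, fell from 5.26 to 2.49 FPKM (log2 fold change -1.05, adjusted p = 3.01e-06). *Lyn*, a Src family kinase, fell from 2.30 to 1.13 FPKM, *Hic1*, a transcriptional repressor, from 9.41 to 5.02 FPKM, and *Cyp2s1*, a cytochrome P450, from 9.04 to 5.39 FPKM. *Timp1*, an inhibitor of metalloproteinases, and *Lmna*, lamin A/C, fell from 4.05 to 2.31 and from 6.09 to 3.97 FPKM.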
